A study of Wolfiporia cocos with 12 samples.

Results

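Of the 12746 gene models in the authors' table for Wolfiporia cocos, 34 have the word proteasome in their InterPro or domain description, and these 34 models were followed across 12 RNA-seq libraries. Brown rot by this basidiomycete removes the polysaccharides of wood and leaves modified lignin. All cultures were of strain MD-104, started from plate-grown mycelium, shaken for 5 days and sampled in 3 cultures per carbon source. The 4 carbon sources were milled lodgepole pine (Pinus contorta) in basal salts, milled aspen (Populus grandidentata) in basal salts, Avicel (a microcrystalline cellulose) in defined medium, and glucose in defined medium. Each wood was supplied at 0.5% (w/v) and was the only carbon source. The pine and aspen libraries were run on lane 2 and the Avicel and glucose libraries on lane 1, so medium and lane cannot be told apart in any comparison of a wood with Avicel or glucose.

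The proteasome is the main protease of the cytosol and nucleus and degrades proteins that have been tagged with chains of ubiquitin. Its core particle, called 20S, is a barrel of stacked rings built from alpha subunits, which gate the entry, and beta subunits, some of which carry the proteolytic sites. A regulatory particle caps the barrel, binds tagged proteins, removes the ubiquitin, and unfolds and feeds in the chain. The core and the regulatory particle are needed together for degradation of tagged proteins, and in yeast their genes are known to be controlled as a set. Fungi that grow on wood secrete hydrolases and oxidative agents, whereas the proteasome works inside the cell.

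The 34 models fell into 6 roles by label. In 11 models the label was the one shared by the A and B (alpha and beta) types of 20S subunit, and in 3 models it was that of the beta subunit peptidase, giving 14 core models. In 15 models the label was the PCI region, a helical and winged-helix segment found in lid subunits of the regulatory particle. That segment also occurs in the COP9 signalosome and in the translation initiation factor eIF3, and the label does not say to which complex a PCI model belongs. In 3 models the label was the proteasome/cyclosome repeat, which builds the large scaffold subunits at the base of the regulatory particle and also occurs in a subunit of the anaphase-promoting complex. The 2 remaining labels were PI31, a proteasome-binding regulator, and PA28, an activator that opens the core without a need for ubiquitin, each on 1 model. None of these 6 labels names an ATPase of the base, and how those subunits are labelled in the authors' table was not looked at. The 34 models lay on 13 scaffolds, with 9 of them on scaffold 4. None of the 34 had a signal peptide entry in the authors' table, where 1041 of the 12746 models had one.

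Levels were in RPKM, read counts scaled to model length and library depth, so that models of different length can be compared. Recovered depth per library was 9.83 to 22.5 in units of 1e6 reads, and 3 reads on a model of 1 kb came to 0.134 to 0.305 RPKM. A recovered depth can be off by a factor of 2 where the step of 1 read is misread. In pine 2, aspen 3 and Avicel 3, the shallowest libraries, 31, 29 and 36 models had a value at the step of 1 read and 2, 0 and 2 models at a step of 0.5 of it, so the lower depth was used. The median of the 33 members that entered the tests was 100.4 RPKM over the 12 libraries, against 19.97 RPKM for the median of the 10184 tested models, and 30 of all 34 members were above the 75th percentile of tested models. The same 30 members averaged over 50 RPKM, and the other 4 averaged under 25 RPKM. Among members over 50 RPKM, a cut that itself limits the span, the 13 core models spanned 3.56-fold in mean RPKM, the 13 PCI models 3.52-fold and the 2 repeat models 1.17-fold. Without the cut the core models ran from 3.40 to 268 RPKM and the PCI models from 0.0178 to 190.4 RPKM.

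**Figure D1:**
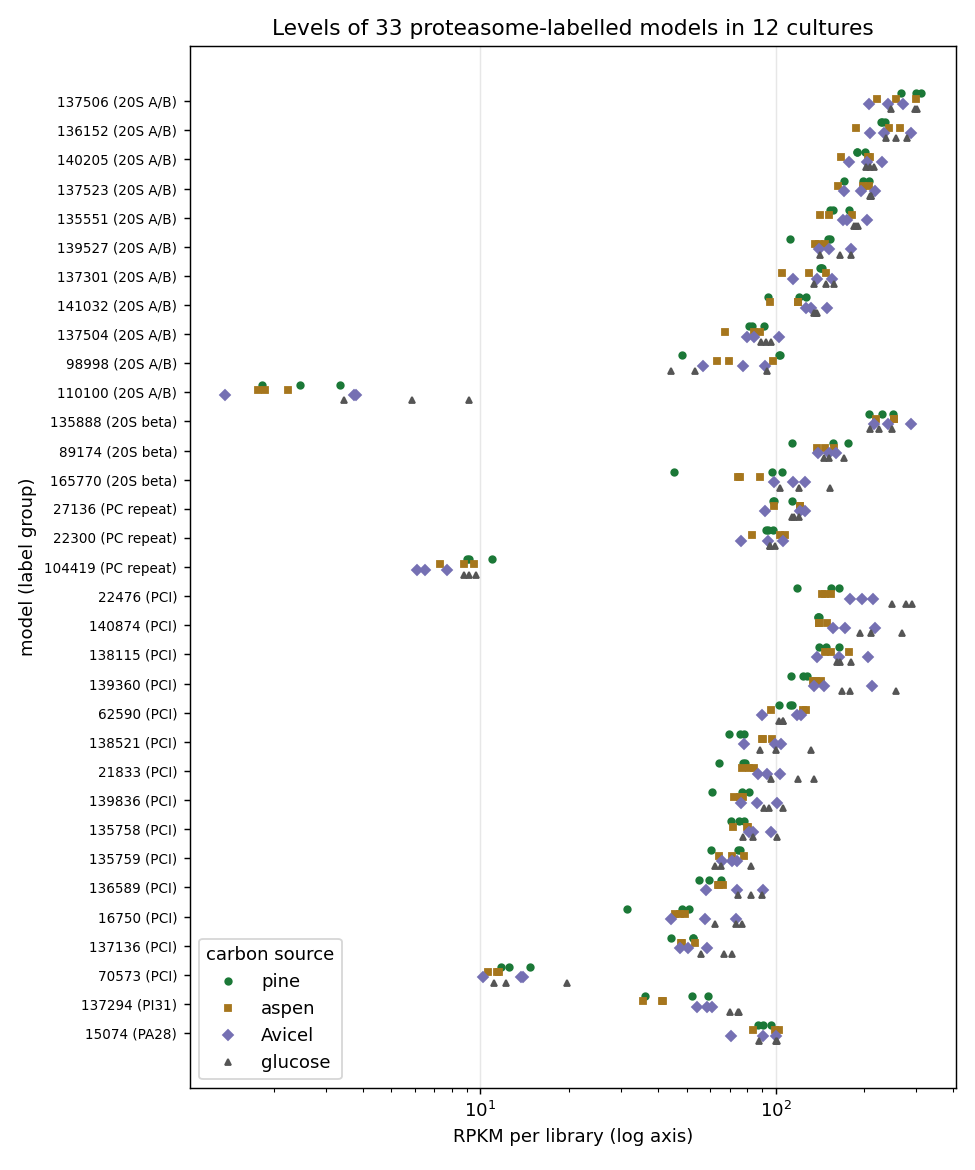
RPKM of the 33 tested proteasome-labelled models in each of the 12 libraries, on a log axis. Each row is a model with its label group, ordered by mean within the group, and each point is 1 culture. Above 50 RPKM the 4 carbon sources largely overlap in most rows, while the models 110100, 104419 and 70573 sit far to the left of the rest.

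The most abundant core model was 137506, at scaffold 4:2996583-2998012 on the minus strand. It had 310.1, 299 and 265 RPKM in the pine libraries, 257, 219.7 and 299.6 RPKM in the aspen libraries, 269.9, 241 and 207 RPKM in the Avicel libraries, and 246, 296 and 302 RPKM in the glucose libraries. The libraries of all 4 carbon sources overlapped, and the model passed the test in none of the 6 comparisons. Among the models with the beta peptidase label, 135888 was the highest with a mean of 236 RPKM and 165770 the lowest with 100.4 RPKM. The most abundant PCI model was 22476, with a mean of 190.4 RPKM, and the most abundant repeat model was 27136, with 112 RPKM. The PA28 model 15074 averaged 92.7 RPKM and the PI31 model 137294 averaged 54.9 RPKM.

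A few members were far below the rest. The core model 110100 averaged 3.40 RPKM, the repeat model 104419 averaged 8.57 RPKM and the PCI model 70573 averaged 12.8 RPKM. In its lowest library, Avicel replicate 2, the model 110100 rested on at most 21.4 reads, counted over its whole span, whereas 70573 and 104419 rested on at most 253 and 388 reads in theirs. The PCI model 167983, a short model of 355 bases, was listed at 0 in 11 libraries and at 0.214 RPKM in aspen replicate 2, and it was the only member below the filter of a mean of 1 RPKM in at least 1 carbon source. That left 33 members in the tests. The models 110100, 104419, 70573 and 167983 were each more than 2 log2 units below the median member.

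Changes between carbon sources are given as log2 differences of RPKM + 1, with standard errors from limma, in which all 12 libraries shared 1 estimate of the spread. A member was called when its p-value, adjusted by the Benjamini-Hochberg method over all 10184 models, was under 0.05. RPKM describes a share of the reads in a bulk culture, so fewer cells with the transcript and less of it per cell cannot be told apart.

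On pine, 10 of the 33 tested members were lower than on glucose and none was higher. They were 8 of the 14 tested models with the PCI label, the PI31 model and the weakly expressed core model 110100. Their log2 changes ran from -0.42 to -0.96, so none reached 2-fold on the scale of RPKM + 1. Among all tested models, 6.20% were called lower by at least that much. That scale understates the change of 110100, which averaged 2.54 RPKM on pine and 6.16 RPKM on glucose. The 10 members are 30.3% of those tested, beside a background in which 16.9% of all tested models were called lower and 10.0% were called higher in this comparison. The median log2 change was -0.17 over the members and -0.14 over all tested models. For the 14 tested PCI models the median was -0.44, for the 11 core models with the shared label -0.13, for the 3 with the beta label -0.09 and for the 3 repeat models -0.03. When each library was centred on its median, the median of the members was -0.0693 and the number lower was 6. That centring split all called models into 1266 higher and 1297 lower, against 1019 and 1717 as scaled by the authors. The number of members lower was 6 in a fit of pine and glucose alone, which called 1519 of all tested models lower. That number was 4 without glucose 1, 5 without pine 2, pine 3 or glucose 3, and 6 without aspen 1 or aspen 3. The matching counts over all tested models are not given here. An F test of limma across the 4 carbon sources called 2201 of all tested models without glucose 1, against 2987 with all 12 libraries.

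The PCI model 22476, at scaffold 1:3737937-3740963 on the minus strand, had 164, 118 and 154 RPKM in the pine libraries, 144, 147 and 154 RPKM in the aspen libraries, 179, 213 and 196 RPKM in the Avicel libraries, and 277, 249 and 290.3 RPKM in the glucose libraries. Every wood library lay below every Avicel library, and every Avicel library below every glucose library. The log2 change on pine against glucose was -0.91 (SE 0.14, adjusted p = 0.000621), and that on aspen against glucose was -0.87 (SE 0.14, adjusted p = 0.000874). Both calls remained when any 1 of the 12 libraries was left out.

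The PCI model 140874, at scaffold 19:352334-354333 on the plus strand, had 140.0, 139 and 139 RPKM in the pine libraries, 140.1, 149 and 139.8 RPKM in the aspen libraries, 157, 216 and 172 RPKM in the Avicel libraries, and 193, 211 and 268 RPKM in the glucose libraries. The wood cultures were close to each other and all below the Avicel and glucose cultures, which overlapped. It fell by 0.67 on pine (SE 0.15, adjusted p = 0.00692) and by 0.63 on aspen (SE 0.15, adjusted p = 0.00914) on the log2 scale against glucose, and both calls remained without any 1 library.

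The PCI model 21833, at scaffold 1:982263-983777 on the plus strand, had 77.9, 64.2 and 78.9 RPKM in the pine libraries, 76.8, 81.6 and 84.2 RPKM in the aspen libraries, 87.1, 103.9 and 93.3 RPKM in the Avicel libraries, and 119, 96.8 and 135 RPKM in the glucose libraries. All wood libraries were below all glucose libraries, and Avicel overlapped glucose. The log2 change was -0.65 on pine against glucose (SE 0.14, adjusted p = 0.00586), called without any 1 library, and -0.52 on aspen against glucose (SE 0.14, adjusted p = 0.0194). The aspen call was lost when aspen 1, aspen 2, glucose 1 or glucose 3 was left out, with an adjusted p of up to 0.0758. The whole 1515 bases of this model lie inside a model on the same strand, 21802, with a label of unknown function (SprT) and a mean of 14.4 RPKM. The model 21802 is listed with a span of 107831 bases. Reads of the 2 models may have been shared in counting.

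The PI31 model 137294, at scaffold 4:1997897-1999196 on the minus strand, had 52.0, 36.2 and 59.1 RPKM in the pine libraries, 41.6, 35.6 and 41.1 RPKM in the aspen libraries, 54.3, 58.6 and 60.9 RPKM in the Avicel libraries, and 74.9, 74.99 and 70.0 RPKM in the glucose libraries. The glucose libraries were above all others, the aspen libraries were below all Avicel libraries, and pine spread across the range of both. Against glucose the log2 change was -0.60 on pine (SE 0.16, adjusted p = 0.0173) and -0.88 on aspen (SE 0.16, adjusted p = 0.00196). The aspen call remained without any 1 library, and the pine call was lost without glucose 1 or glucose 2 (adjusted p of up to 0.0538).

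**Figure D2:**
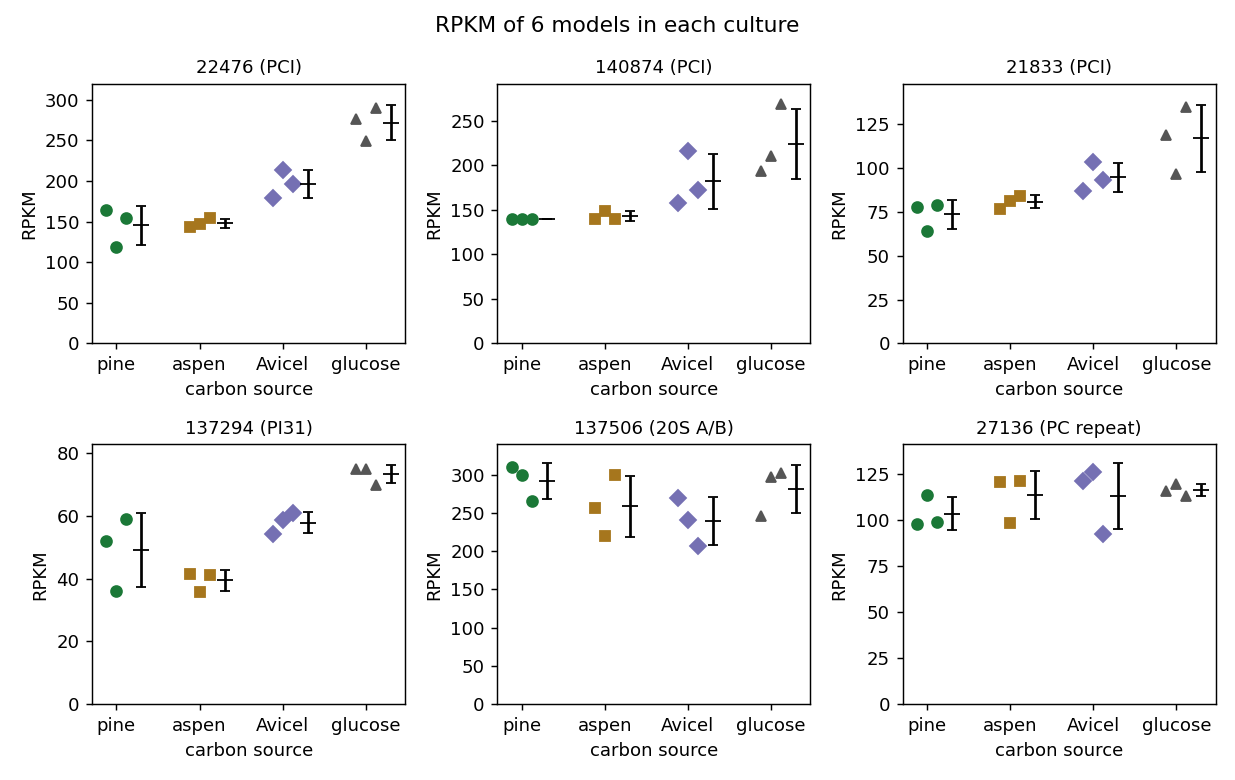
RPKM in each culture for 4 called models (22476, 140874, 21833 and 137294) and for 2 that were not called, the most abundant core model 137506 and the most abundant repeat model 27136. Points are the 3 cultures per carbon source, and the bar beside them is the mean with 1 SD. The 3 PCI models and the PI31 model are highest on glucose, with 22476 at 249 to 290.3 RPKM on glucose, while the groups overlap for 137506 and 27136.

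The other members that fell on pine were PCI models and 1 core model. The PCI model 16750 had 50.7, 31.4 and 48.4 RPKM on pine, against 76.8, 62.5 and 73.5 RPKM on glucose (log2 change -0.72, SE 0.20, adjusted p = 0.0231). The PCI model 139360 had 124, 128 and 113 RPKM on pine, against 167, 178 and 255 RPKM on glucose (log2 change -0.69, SE 0.19, adjusted p = 0.0189). In both models the pine and glucose cultures did not overlap. The call for 16750 was lost without pine 2, glucose 1 or glucose 3 (adjusted p of up to 0.0864) and that for 139360 without pine 3 or glucose 3 (up to 0.0727). The PCI models 138521, 136589 and 139836 changed by -0.49, -0.45 and -0.42 on the log2 scale, and these calls rested on most of the libraries. That of 138521 was lost without any of the pine libraries, aspen 1, aspen 3, glucose 1 or glucose 3 (adjusted p of up to 0.138). That of 136589 remained without Avicel 1 or Avicel 3 and was lost without any other library (up to 0.142), and that of 139836 remained without pine 1, Avicel 1 or Avicel 3 and was lost without any other (up to 0.161). The remaining 6 tested PCI models did not pass, and the models 62590 and 135759 had log2 changes of 0.06 and 0.01.

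The core model 110100, at scaffold 19:712616-713636 on the minus strand, had 1.82, 3.34 and 2.45 RPKM on pine, 2.23, 1.77 and 1.87 RPKM on aspen, 3.73, 1.37 and 3.80 RPKM on Avicel, and 5.87, 9.14 and 3.47 RPKM on glucose. It was the only core model called against glucose in the fit of all 12 libraries, and the glucose cultures themselves spread widely. The log2 change was -0.96 on pine (SE 0.32, adjusted p = 0.0471) and -1.20 on aspen (SE 0.32, adjusted p = 0.0186). The pine call remained without glucose 3 or any 1 Avicel library and was lost without any other (adjusted p of up to 0.167), and the aspen call without aspen 2, aspen 3, glucose 1 or glucose 2 (up to 0.0768). Nearly all of this model, 1013 of its 1021 bases, overlaps the opposite strand of a fatty acid desaturase model, 140928, which averaged 81.2 RPKM on pine, 97.1 RPKM on aspen, 69.1 RPKM on Avicel and 51.0 RPKM on glucose. Use of strand in counting is a point not given in the sources used here, so reads of the pair may not be separable.

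On aspen, 5 of the 33 tested members were lower than on glucose and none was higher. They were the 3 PCI models 22476, 140874 and 21833, the PI31 model and 110100. Only 110100 was lower by over 2-fold, beside 6.56% of all tested models called lower by at least that much. These are 15.2% of the members tested, near the 16.4% of all tested models called lower, and 10.0% of all tested models were called higher. The median log2 change was -0.20 over the members, against -0.12 over all tested models, with -0.35 for the PCI models and -0.20 for the core models with the shared label. The models 16750 and 139360 had log2 changes of -0.56 and -0.51 on aspen and missed the threshold, with adjusted p = 0.0620 and 0.0680. The number lower was 8 in a fit of aspen and glucose alone or without pine 2, and 3 without aspen 2 or glucose 1. Counts over all tested models without 1 library are not given here. The fit of aspen and glucose alone called 1814 of all tested models lower, against 1668 with all 12 libraries. Centring each library on its median gave a median of -0.0983 over the members and 5 lower, and split all called models into 1281 higher and 1319 lower, against 1021 and 1668 as scaled by the authors.

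**Figure D3:**
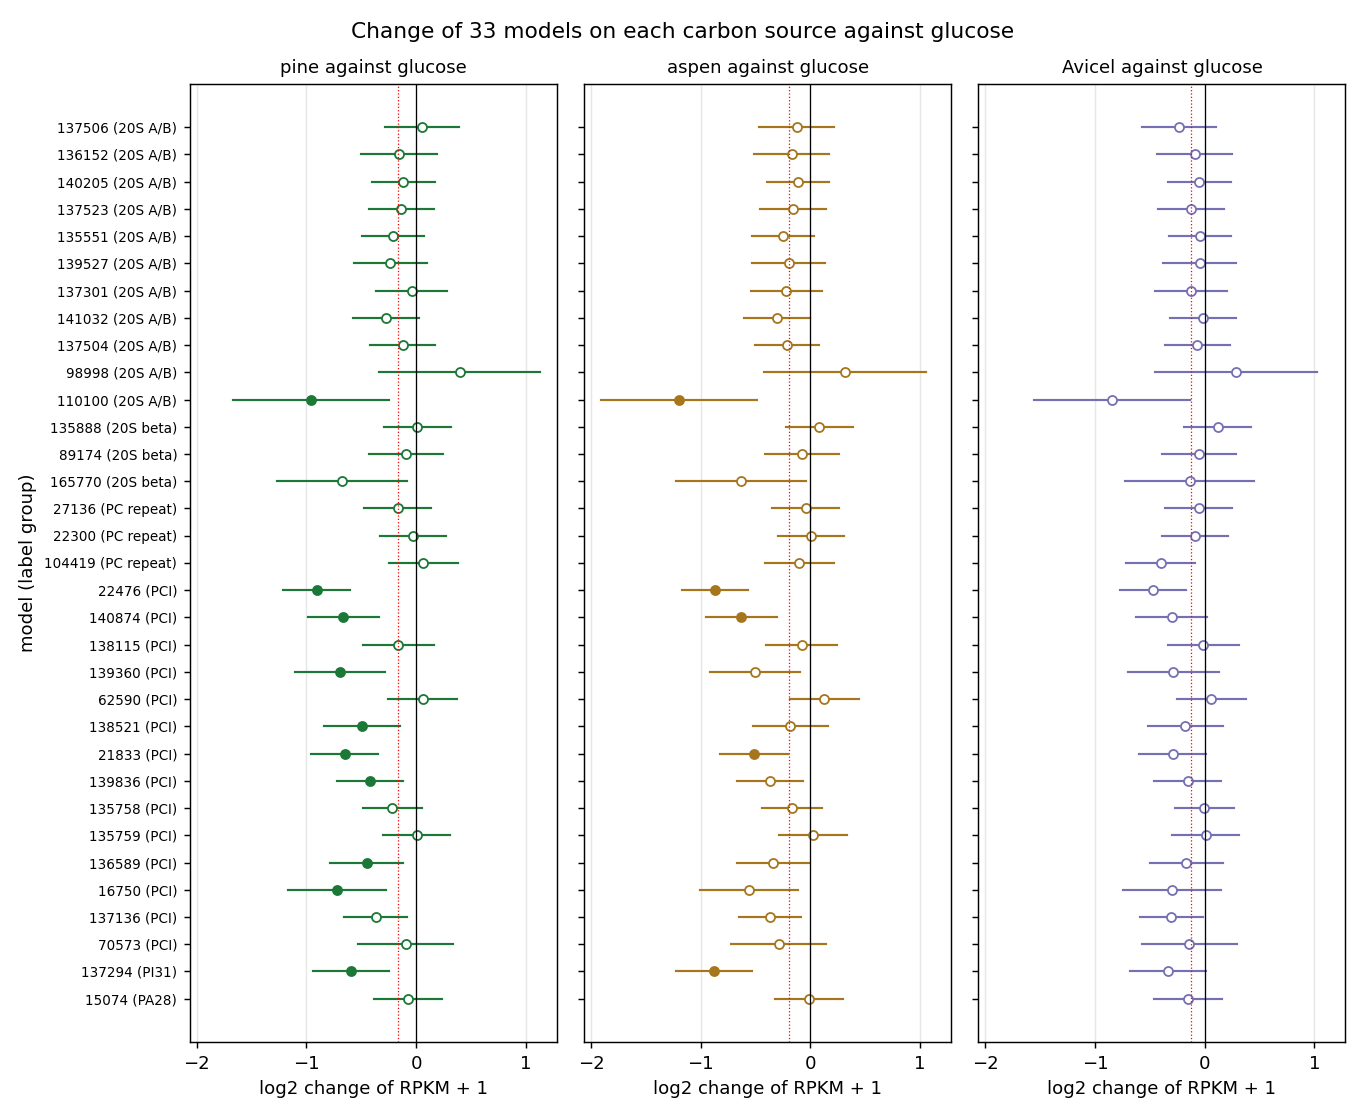
Log2 change of RPKM + 1 for the 33 tested models on pine (left), aspen (middle) and Avicel (right), each against glucose. Points are estimates from limma with 95% intervals, filled where the adjusted p was under 0.05, and the dotted red line is the median of the 33 models, at -0.17, -0.20 and -0.12. The filled points are 10 on pine, 5 on aspen and none on Avicel, and most of them stand in the PCI rows.

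On Avicel, none of the 33 members was called against glucose by limma, and 4 had an unadjusted p under 0.05. The share of all tested models at that unadjusted cut is not given here. In this comparison, which lies within 1 lane, 1.89% of all tested models were called lower and 1.21% were called higher. The members with an unadjusted p under 0.05 were 22476 (log2 change -0.47, adjusted p = 0.0820), 110100 (-0.85, adjusted p = 0.149), 104419 (-0.40, adjusted p = 0.133) and 137136 (-0.30, adjusted p = 0.191). The median log2 change was -0.12 over the members, against -0.18 over all tested models, and the median of the members was 0.0466 when each library was centred on its median. That centring split all called models into 155 higher and 73 lower, against 123 and 192 as scaled by the authors. The 95% interval of the change lay within 2-fold in either direction for 31 of the 33 members on Avicel, and for 27 members on each wood against glucose.

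Between pine and aspen, which shared a lane, no member was called by limma, where 0.157% of all tested models were called higher on pine and 0.0295% were called lower. No member had an unadjusted p under 0.05, a cut for which the share of all tested models is not given here. For all 33 members the 95% interval lay within 2-fold, and the median log2 change on pine against aspen was -0.03, with the largest changes at -0.31 for 138521, 0.28 for 137294 and 0.24 for 110100. That median was 0.0696 without pine 2 and 0.0039 without aspen 3. A p that misses the threshold does not show that the levels were equal.

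Against Avicel the woods showed single calls, with a median log2 change of -0.11 on pine and -0.09 on aspen over the members, against 0.04 and 0.05 over all tested models. On aspen the PI31 model was lower (log2 change -0.54, SE 0.16, adjusted p = 0.0376), beside 6.25% of all tested models called lower and 10.1% called higher. On pine the PCI model 22476 was lower (-0.44, SE 0.14, adjusted p = 0.0467), beside 7.81% of all tested models called lower. On pine also the repeat model 104419 was higher (0.46, SE 0.14, adjusted p = 0.0424), beside 11.6% called higher. This repeat model had 9.16, 10.98 and 9.01 RPKM on pine, 8.83, 7.31 and 9.52 RPKM on aspen, 6.50, 7.74 and 6.11 RPKM on Avicel, and 8.83, 9.68 and 9.16 RPKM on glucose. Avicel was thus its lowest carbon source, without overlap with pine or glucose. The aspen call of the PI31 model remained without Avicel 1 or any 1 pine library and was lost without any other (adjusted p of up to 0.114). The pine call of 22476 remained without pine 1 or Avicel 1 and was lost without any other (up to 0.164), and that of 104419 remained without aspen 2, aspen 3 or Avicel 2 and was lost without any other (up to 0.145). None reached 2-fold, a size met by 3.72% of all tested models among those called lower on aspen, and by 4.47% among those called lower and 4.56% among those called higher on pine. Across the 4 carbon sources together, the F test of limma called 4 of 33 members (12.1%), where 29.3% of all tested models were called, and these were 22476, 137294, 140874 and 21833, with adjusted p = 0.00135, 0.00759, 0.0144 and 0.0180.

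Of the 14 core models, the 13 other than 110100 passed in no comparison in the fit of all 12 libraries. Of these, 165770 and 98998 had standard errors of 0.27 and 0.34 on the log2 scale and are given by culture. The beta-labelled model 165770 had 104.8, 45.2 and 97.3 RPKM on pine, 76.0, 88.9 and 74.9 RPKM on aspen, 126, 99.2 and 115 RPKM on Avicel, and 153, 103.7 and 120.4 RPKM on glucose. Its changes of -0.68 on pine and -0.63 on aspen against glucose did not pass (adjusted p = 0.0847 and 0.107). Without pine 1 the pine change was called. The aspen change was called without pine 2, the lowest library, and in a fit of aspen and glucose alone. The shared-label model 98998 had 103.4, 48.1 and 102.7 RPKM on pine, 69.5, 98.1 and 63.6 RPKM on aspen, 92.2, 56.9 and 77.3 RPKM on Avicel, and 93.6, 44.4 and 53.3 RPKM on glucose. Its pine libraries alone differed by more than the means of the 4 carbon sources did.

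Summed over the 34 models, the level was 3644 ± 220.3 RPKM on pine, 3669 ± 250.4 RPKM on aspen, 3982 ± 387 RPKM on Avicel and 4337 ± 136 RPKM on glucose (SD, n = 3 each). As a share of all RPKM in a library this was 0.513% on pine, 0.527% on aspen, 0.520% on Avicel and 0.584% on glucose. The 14 core models summed to 2095 ± 150.3 RPKM on pine, 2038 ± 176 RPKM on aspen, 2171 ± 269 RPKM on Avicel and 2263 ± 40.8 RPKM on glucose. The core sums of pine and Avicel overlapped that of glucose, and the aspen libraries lay below the glucose libraries. The 15 PCI models summed to 1200 ± 68.0 RPKM on pine, 1275 ± 34.7 RPKM on aspen, 1454 ± 145 RPKM on Avicel and 1682 ± 166 RPKM on glucose. The ratio of the PCI sum to the core sum was 0.558 to 0.583 in the pine libraries, 0.600 to 0.673 in the aspen libraries, 0.593 to 0.759 with Avicel and 0.675 to 0.837 with glucose. Both woods lay below glucose in all their libraries, and Avicel overlapped aspen and glucose. These sums describe a list chosen by label and were given no test.

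**Figure D4:**
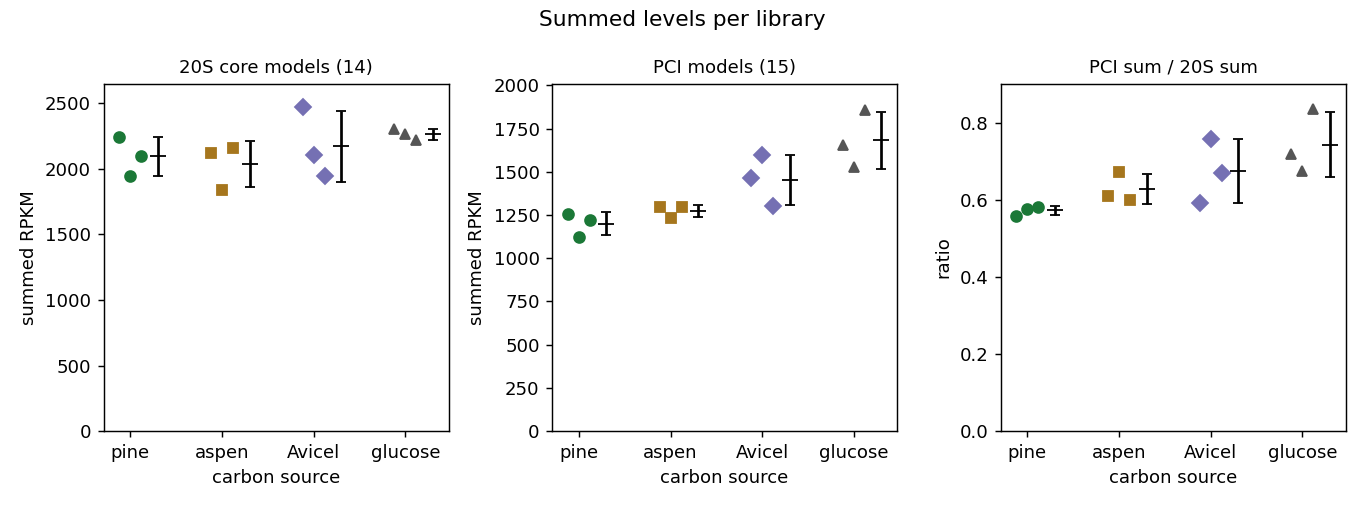
Summed RPKM of the 14 core models (left) and the 15 PCI models (middle) in each library, and the ratio of the second sum to the first (right). Points are cultures, and the bar beside them is the mean with 1 SD. The core sum of pine and Avicel overlaps that of glucose, while the PCI sum is 1200 ± 68.0 RPKM on pine and 1682 ± 166 RPKM on glucose.

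Several members lie beside or across other models. The core models 137301 and 89174 are neighbours on the plus strand of scaffold 4 with 242 bases between them, and had log2 changes of -0.04 and -0.09 on pine, -0.22 and -0.08 on aspen and -0.12 and -0.05 on Avicel against glucose, none of which passed. The PCI models 135758 and 135759 on scaffold 2 start 114 bases apart on opposite strands and also passed in no comparison. Of the 34 members, 10 overlap another model. Besides 21833 and 110100, the overlaps of 22476 (570 bases), 137504 (1620 bases) and 137136 (1311 bases) are with models of under 0.1 RPKM on average. Those of 16750 (254 bases), 137301 (1221 bases), 135759 (1267 bases) and 62590 (364 bases) are with models on the opposite strand that averaged 24.4, 29.1, 9.26 and 50.4 RPKM, and that of 165770 is 7 bases long.

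The authors' deposited table also gives p-values of their own for 4 comparisons. The counts that follow take p under 0.05 in either direction, whereas the limma counts are split by direction at an adjusted p. In the authors' deposited table, 6 of 33 members had a p under 0.05 on pine against glucose, where 24.1% of all models with a p did. In the authors' deposited table the count was 8 of 33 members on aspen against glucose, beside 26.8% of all models, and 0 of 33 on Avicel against glucose, beside 6.07%. For both woods the share of members was thus below that of all models. More members passed on aspen than on pine in the authors' deposited table, the reverse of the order by limma. For pine against aspen the authors' deposited table had 0 of 33 members under 0.05, beside 1.81% of all models. The lowest values of the authors' deposited table were 0.00748 for 22476 on pine and 0.0015 for 137294 on aspen, both against glucose.

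Mass spectrometry values are listed for 704 proteins in the authors' deposited table, with 1 value per carbon source and no replicates. In it are 16 of the 34 members: 6 core models, 8 PCI models and both abundant repeat models. Peptides are given in the authors' deposited table for 9 members on pine, 15 on aspen, 1 on Avicel and 5 on glucose. The peptide counts of the members in the authors' deposited table summed to 23 on pine, 43 on aspen, 3 on Avicel and 10 on glucose. These are 0.825%, 1.39%, 0.238% and 0.435% of the 2789, 3097, 1260 and 2298 peptides that the authors' deposited table lists for all proteins on pine, aspen, Avicel and glucose. The number of all proteins with peptides moved in the same order, at 513 on pine, 580 on aspen, 252 on Avicel and 436 on glucose, and its part in the member counts was not tested.

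The core protein 135551 was the only member seen on all 4 carbon sources in the authors' deposited table, with 3 peptides on pine, 3 on aspen, 3 on Avicel and 2 on glucose. The repeat protein 27136, with the label of the large scaffold subunits, had 3 peptides on pine and 6 on aspen in the authors' deposited table, and 0 on Avicel and glucose. In the authors' deposited table the core protein 136152 had 3 peptides on pine, 4 on aspen, 0 on Avicel and 2 on glucose. The PCI proteins 135758, 138521 and 16750 each had 4 peptides on 1 of the woods in the authors' deposited table, and none on glucose. Peptides on aspen alone are given in the authors' deposited table for 6 members, with 2 to 4 each, namely 140205, 135759, 138115, 139836, 16750 and 62590. How many of all listed proteins had peptides on aspen alone is not given here, and aspen had the most peptides of the 4 carbon sources. The transcripts of these 6 members were not higher on aspen than on glucose by limma, and the culture fraction that gave the protein is a point not given in the sources used here.

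**Figure D5:**
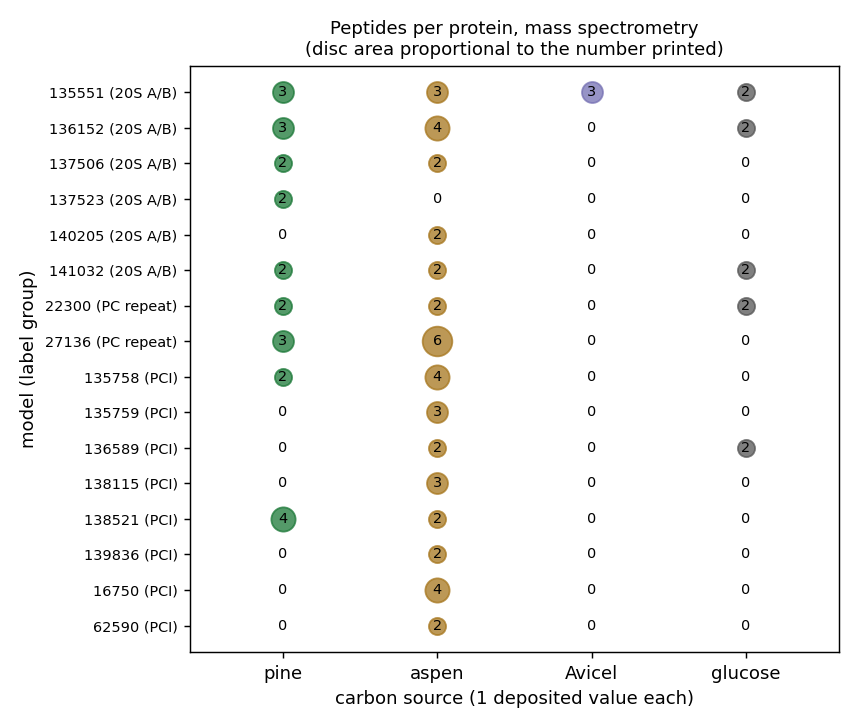
Number of peptides per protein for the 16 members listed in the authors' deposited table, with 1 value per carbon source. Disc area is proportional to the number printed in it. Members with peptides number 9 on pine, 15 on aspen, 1 on Avicel and 5 on glucose.

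A wider list of 87 models was taken from labels that name ubiquitin, cullin, SKP1 or related parts of the tagging pathway, the steps that mark proteins for the proteasome. Of its 84 tested models, 3 were higher and 14 lower on pine than on glucose, and 0 were higher and 18 lower on aspen than on glucose. The models called lower are 16.7% of the list on pine and 21.4% on aspen, beside 16.9% and 16.4% of all tested models. The 3.57% called higher on pine and 0% on aspen stand beside 10.0% of all tested models in each comparison. On Avicel against glucose limma called none of the 84, with 18 at an unadjusted p under 0.05, and on pine against aspen none, with 5 at an unadjusted p under 0.05. The share of all tested models at that unadjusted cut is not given here, so these counts show no trait of the list. Against Avicel, 4.76% of the list was lower on pine and 5.95% on aspen, beside 7.81% and 6.25% of all tested models. The shares higher were 3.57% and 1.19%, beside 11.6% and 10.1%. The median log2 change of the list was -0.19 on pine and -0.18 on aspen, against -0.14 and -0.12 over all tested models.

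The largest fall in the list was in 17825, a model with the homology region of cullins, the scaffolds of a class of ubiquitin ligases. It had 14.9, 9.99 and 21.4 RPKM on pine, 15.1, 8.34 and 13.5 RPKM on aspen, 52.4, 92.6 and 63.0 RPKM on Avicel, and 119, 123 and 171 RPKM on glucose. All wood libraries lay below all Avicel libraries, and these below all glucose libraries. The log2 change against glucose was -3.12 on pine (SE 0.29, adjusted p = 1.95e-05) and -3.40 on aspen (SE 0.29, adjusted p = 1.36e-05), and against Avicel it was -2.12 on pine (adjusted p = 0.000628) and -2.40 on aspen (adjusted p = 0.000417). These 4 calls remained without any 1 library.

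The deubiquitinase 138798, labelled as a ubiquitin carboxyl-terminal hydrolase of peptidase family C12, had 38.1, 36.0 and 54.1 RPKM on pine, 47.4, 31.6 and 50.7 RPKM on aspen, 80.3, 73.5 and 60.8 RPKM on Avicel, and 115, 119 and 98.2 RPKM on glucose. It was lower on both woods than on glucose, by -1.37 on pine (adjusted p = 0.000473) and -1.36 on aspen (adjusted p = 0.000523) on the log2 scale. The SKP1 model 114329, an adaptor of cullin ligases, was lower on the woods than on Avicel, with 68.5, 70.7 and 81.3 RPKM on pine and 70.5, 63.5 and 78.3 RPKM on aspen, against 143, 132 and 127 RPKM on Avicel. It had 129, 165 and 123 RPKM on glucose, so all wood libraries lay below all Avicel and all glucose libraries. The log2 change was -0.86 on pine (adjusted p = 0.00146) and -0.91 on aspen (adjusted p = 0.00131), each against Avicel. The E2 model 138121, a ubiquitin-conjugating enzyme, was higher on pine, with 108, 97.2 and 125 RPKM, against 76.7, 69.5 and 75.1 RPKM on glucose (log2 change 0.57, adjusted p = 0.0198). That call was lost without pine 3 or glucose 2, with an adjusted p of up to 0.0716. This model had 95.4, 80.6 and 118 RPKM on aspen, also above all glucose libraries though not called, and 77.6, 71.5 and 60.8 RPKM on Avicel. Against Avicel it was higher on pine (log2 change 0.65, adjusted p = 0.0138), a call lost without Avicel 3.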

How the data were processed

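Members were the models whose InterPro or domain description in the authors' table contains proteasome, and the wider lists were also taken by label. Members and lists were chosen with earlier results of these data known. Poly-A RNA was sequenced per the labels' protocols, and the submitters' processing notes name CASAVA 1.8.2. Points not given in the sources used here are the aligner, the counter, strandedness and the genome build. The deposited expression values were taken as RPKM made by the authors, a unit inferred from the values because no header names it. The authors deposited p-values of their own for 4 comparisons, a signal peptide probability (fraction) per model, peptide numbers and an emPAI protein score per carbon source, per the file headers. The emPAI score is not printed here, and coordinates are those of the authors' table.

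Depth was recovered from the steps between low values of a model, and it covers counting error only. Models with a mean of at least 1 RPKM in 1 carbon source (10184) were fitted on log2(RPKM + 1) with limma 3.58.1 in R 4.3.3, with an intensity trend, 4 group means, 8 residual degrees of freedom, and Benjamini-Hochberg adjustment within each of 6 comparisons. Fold changes on this scale understate changes of models with low levels. The p-values set a change against the spread between the 3 cultures of a carbon source, pooled over all 4 and moderated over all models. Tested on simulated data for pine against glucose over 10184 models, the fit recovered 78% of changes of 1 log2 unit and 97% of changes of 2 log2 units, with 14 false calls. The simulated data held far fewer changed models than were called here, no lane effect and no change under 1 log2 unit. These rates therefore need not hold for the members, most of whose changes were smaller. Named are members called or most changed, the extremes of each role, members at 0 or with overlaps, and those with protein values. Alternatives were other pseudocounts, filters and scalings, no trend, a fold of 2, a replicate block, fits of 2 groups, and leaving out each library.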

Additional observations from a re-analysis of the deposited data

How the results depend on the processing

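No member called in a comparison changed direction there under any alternative. The median of the members changed sign for Avicel against glucose with median centring, and for pine against aspen without pine 2 or aspen 3. The counts of members lower on pine (10) and on aspen (5) than on glucose became 6 and 8 in fits of only the 2 groups and 0 and 1 at a fold of at least 2, and pine became 6 with median centring. Over all tested models the fits of only the 2 groups called 1519 lower on pine and 1814 on aspen, against 1717 and 1668. Leaving out 1 library gave 4 to 10 lower on pine (4 without glucose 1, 5 without pine 2, pine 3 or glucose 3, 6 without aspen 1 or 3) and 3 to 8 on aspen (3 without aspen 2 or glucose 1, 8 without pine 2). Counts lower over all tested models without 1 library are not given here. Against Avicel, the 1 lower on aspen became 2 with median centring, 0 at a fold of at least 2 and 0 to 2 without 1 library. The 1 lower on pine became 2 with median centring, 0 without the trend, with the block, in the 2-group fit or at a fold of at least 2, and 0 to 1 without 1 library. The 1 higher on pine became 0 with no filter, median centring, quantile normalization, the block, the 2-group fit or a fold of at least 2, and 0 to 1 without 1 library. The F test gave 3 to 6 members without 1 library. Over all tested models it called 2161 to 2987 there, against 2987 with all 12 libraries. The cause of these shifts was not tested.

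Median centring moved the median log2 change of the members to -0.0693 on pine, -0.0983 on aspen and 0.0466 on Avicel against glucose. Without 1 library the medians ranged from -0.223 to -0.15 (pine against glucose), -0.248 to -0.114 (aspen against glucose), -0.209 to -0.0062 (Avicel against glucose), -0.203 to -0.0015 (pine against Avicel), -0.185 to -0.0209 (aspen against Avicel) and -0.0794 to 0.0696 (pine against aspen). With the replicate block 7 members were lower on pine and 5 on aspen than on glucose, beside 1642 and 1594 of all tested models. The labels do not say whether a replicate number marks a pairing. Deviations of same-numbered libraries correlated between -0.42 and 0.44 (median -0.006), and those of differently numbered libraries between -0.42 and 0.33 (median -0.038). Of the 12 libraries, 7 correlated best with a library of their own number, so whether the numbers mark pairs is not known.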

Other observations

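The rule leaves out subunits of the regulatory particle whose labels lack the word proteasome. Among them may be models with the Mov34 (MPN) label, the domain of the deubiquitinase subunit of the lid and of its partner, which also occurs in the COP9 signalosome and eIF3. This label was looked at after values had been seen. Of its 8 models, 3 were lower on pine than on glucose and 2 on aspen, where 16.9% and 16.4% of all tested models were lower, and none was higher. The model 139278 had 246, 223 and 264 RPKM on pine, 265, 251 and 254 RPKM on aspen, 334, 381 and 312 RPKM on Avicel, and 346, 375 and 500.3 RPKM on glucose. Its log2 change against glucose was -0.72 on pine (adjusted p = 0.00522) and -0.65 on aspen (adjusted p = 0.00925, limma). The model 135325 had 72.5, 57.4 and 58.5 RPKM on pine, 65.8, 62.9 and 58.9 RPKM on aspen, 96.1, 80.0 and 61.9 RPKM on Avicel, and 107, 93.1 and 108 RPKM on glucose. Its log2 change against glucose was -0.71 on each wood (adjusted p = 0.00727 on pine and 0.00725 on aspen). In both models all wood libraries lay below all glucose libraries. The model 84368 was lower on pine than on glucose (log2 change -0.42, adjusted p = 0.0350), a call lost without pine 1, pine 3, aspen 1, glucose 2 or glucose 3 (adjusted p of up to 0.124). The other 5 models passed in neither wood.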
